A study of Mus musculus with 12 samples.

Results

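The 10 genes described here encode heavy chains of the mouse major histocompatibility complex (MHC) class I family. They were the rows of the count table whose Ensembl identifier maps, in the annotation of GRCm38, to H2-K1, H2-D1, H2-Q4, H2-Q6, H2-Q7, H2-T10, H2-T22, H2-T23, H2-T24 and H2-M3. These were 10 of 49315 rows, and all 10 passed the filter on low counts in every comparison. RNASeq libraries had been made from T cells taken from the spleen by magnetic negative selection from male mice, 1 library per mouse. The mice were 12 weeks old when the infusion described next was started. WT and miR-214-/- mice carried osmotic minipumps that released vehicle (sham) or angiotensin II (Ang II, 490 ng/kg per day) over 14 days, with 3 mice in each of the 4 groups. The study listed both genotypes under a mixed S129/C57 background and bred them from heterozygous parents. The table held 0 counts of Mir214 in all 12 libraries, and mature miR-214 is not measured by libraries of polyadenylated RNA, which leaves the deletion without a check here.

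Classical MHC class I heavy chains pair with beta-2-microglobulin and carry peptides to the cell surface, where CD8 T cells and natural killer cells read them. H2-K1 and H2-D1 are the classical members, found on nearly all nucleated cells and high on lymphocytes. The other 8 are non-classical: H2-Q6 and H2-Q7 encode Qa-2 antigens, H2-T23 encodes Qa-1, the ligand of the CD94 and NKG2A receptor, H2-T10 and H2-T22 encode ligands of some gamma delta T cell receptors, and H2-M3 presents N-formylated peptides. Transcription of class I genes is known to run through an NF-kB site and an interferon-stimulated response element (ISRE) upstream of the start, and through a conserved module at which NLRC5 acts.

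All 10 genes lie on chromosome 17 between chr17:33996017-34000347 (H2-K1) and chr17:37270220-37274484 (H2-M3) of GRCm38. H2-D1 (chr17:35262730-35267499), H2-Q4 (chr17:35379617-35385290), H2-Q6 (chr17:35424850-35430055) and H2-Q7 (chr17:35439155-35443773) are on the plus strand with H2-M3. H2-T24 (chr17:36005695-36020560), H2-T23 (chr17:36029773-36032855), H2-T22 (chr17:36037128-36042747) and H2-T10 (chr17:36115876-36121465) are on the minus strand with H2-K1. The annotation lists 9 of them as protein-coding and H2-T10 as a polymorphic pseudogene. Of the exon bases of H2-T10, 27.1% lie opposite an exon of BC023719, those of H2-T22 are opposite A930015D03Rik over 29.4%, and those of H2-Q4 opposite Gm11131 over 19.1%. The libraries were stranded, but whether the counting used the strand is not given in the sources used here.

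RefSeq promoter sequences (GRCm38.p6, from 250 bases before to 50 after the start) were at hand for 8 of the 10, and for H2-T10 and H2-T24 none was. They show how far the known class I elements are shared by the family. The letters GGGGATTCC, an NF-kB-like motif, and GTTTCACTT, an ISRE-like motif, were searched as exact strings on both strands. The shares below hold for these exact letters and not for NF-kB sites or ISREs in general. Of 32851 promoters in the table, 0.25% held the first, 0.399% the second and 0.0152% both, which was 5 promoters. Those 5 belonged to H2-K1 (2 alternative starts), H2-D1, H2-Q6 and H2-Q7. Both motifs stood in the same order and 20 bases apart, first base to first base, in H2-K1, H2-D1 and H2-Q6. H2-Q4, H2-T22 and H2-M3 held the ISRE-like letters without the exact NF-kB-like letters, and H2-T23 held neither in this window. A match of letters is no evidence of binding, and a missing match says nothing of the factor. The 60 bases around the ISRE-like motif are given 5′ to 3′ on the gene's own strand, with both motifs in capitals. For H2-D1 this stretch lies inside an annotated exon of the gene and is not printed.
H2-K1, chr17:34000417-34000476: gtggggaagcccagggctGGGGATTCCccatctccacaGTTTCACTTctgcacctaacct
H2-Q6, chr17:35424659-35424718: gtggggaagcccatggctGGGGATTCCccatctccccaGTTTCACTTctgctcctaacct
H2-Q7, chr17:35439003-35439062: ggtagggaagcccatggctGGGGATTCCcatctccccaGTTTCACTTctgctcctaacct
H2-Q4, chr17:35379425-35379484: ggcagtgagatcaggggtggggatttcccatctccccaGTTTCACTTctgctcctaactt
H2-T22, chr17:36042913-36042972: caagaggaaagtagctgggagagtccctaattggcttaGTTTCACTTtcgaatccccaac
H2-M3, chr17:37270094-37270153: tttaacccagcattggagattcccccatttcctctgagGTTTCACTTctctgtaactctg

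The results below turn on H2-T10, so its separation from its nearest copy, H2-T22, matters. Their coding sequences in the annotation have 1137 bases each and were 96.31% identical, with 42 mismatches and no gap. Of all 150-base stretches of H2-T10 transcripts, the length of 1 read of a pair, 0.393% were also found in a transcript of another gene, in each case H2-T22. At 50 bases this share was 32.9%. H2-Q6 and H2-Q7, which were 95.7% identical over their aligned coding bases, shared more: 5.99% of 150-base stretches of H2-Q6 and 5.9% of those of H2-Q7 occurred in another gene. Of the other 6, H2-D1 shared most at 150 bases (1.35%) and H2-Q4 at 50 bases (21.8%). Only reads with 1 place in the genome had been counted, which leaves counts of genes with shared stretches less certain.

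The libraries held 21126874 to 29605988 counts, of which the 10 genes together took between 0.775% and 1.16%. Levels are given as CPM (counts of a gene relative to the library total) scaled by TMM, a correction for differences in library composition, or, between genes, as CPM divided by exon length in kilobases (RPKM). The check of cell type used lists of marker genes. All 12 T cell markers were counted in every library, and their summed level was between 3681 and 6437 CPM, against 54.9 to 431 CPM for 7 B cell markers. Red-cell precursor markers (9 in the table) summed to 279 to 511 CPM in the 6 sham libraries and to 544 to 5608 CPM in the 6 Ang II libraries. None of the markers of 8 cell types was at 0 in any library.

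H2-K1 mRNA was the most abundant per length, with a median of 1354 RPKM over the 12 libraries, and H2-D1 followed at 1014 RPKM. H2-K1 exceeded H2-D1 in 12 of 12 libraries. Classical class I mRNA was thus well above the rest: H2-Q6 had a median of 315 RPKM, H2-Q7 286 RPKM and H2-Q4 252 RPKM. These neighbours overlapped, as H2-Q6 exceeded H2-Q7 in 11 libraries and H2-Q7 exceeded H2-Q4 in 10. The order of H2-Q6 and H2-Q7 rests on the exon lengths, which join all transcripts of a gene (2085 and 4265 bases). In counts H2-Q7 was 1.51-fold to 2.19-fold above H2-Q6. Per length, H2-T23 stood below H2-Q6, H2-Q7 and H2-Q4 at 174 RPKM and above H2-T22 at 84.7 RPKM in 12 of 12 libraries. The lowest 3 were H2-M3 (46.7 RPKM), H2-T10 (29.5 RPKM) and H2-T24 (28.9 RPKM), whose order changed between libraries: H2-M3 exceeded H2-T10 in 7 and H2-T10 exceeded H2-T24 in 9. The order of H2-M3 and H2-T10 also rests on exon length (1438 and 3419 bases). As a share of the counts of the 10 genes, H2-T10 had the higher median, 0.936% against 0.679% for H2-M3.

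Over the 12 libraries, 9 of the genes varied little and H2-T10 varied most. The highest library was between 1.48-fold and 1.86-fold above the lowest for those 9, and 3.3-fold above it for H2-T10. The biological coefficient of variation fitted by edgeR was 0.302 for H2-T10, where the trend for genes of its level was 0.137, and it was between 0.102 and 0.125 for the other 9, below their trend. H2-T10 was at the 80.9th percentile of dispersion among 16770 genes, and the others were between the 15.9th and the 29.4th.

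**Figure D1:**
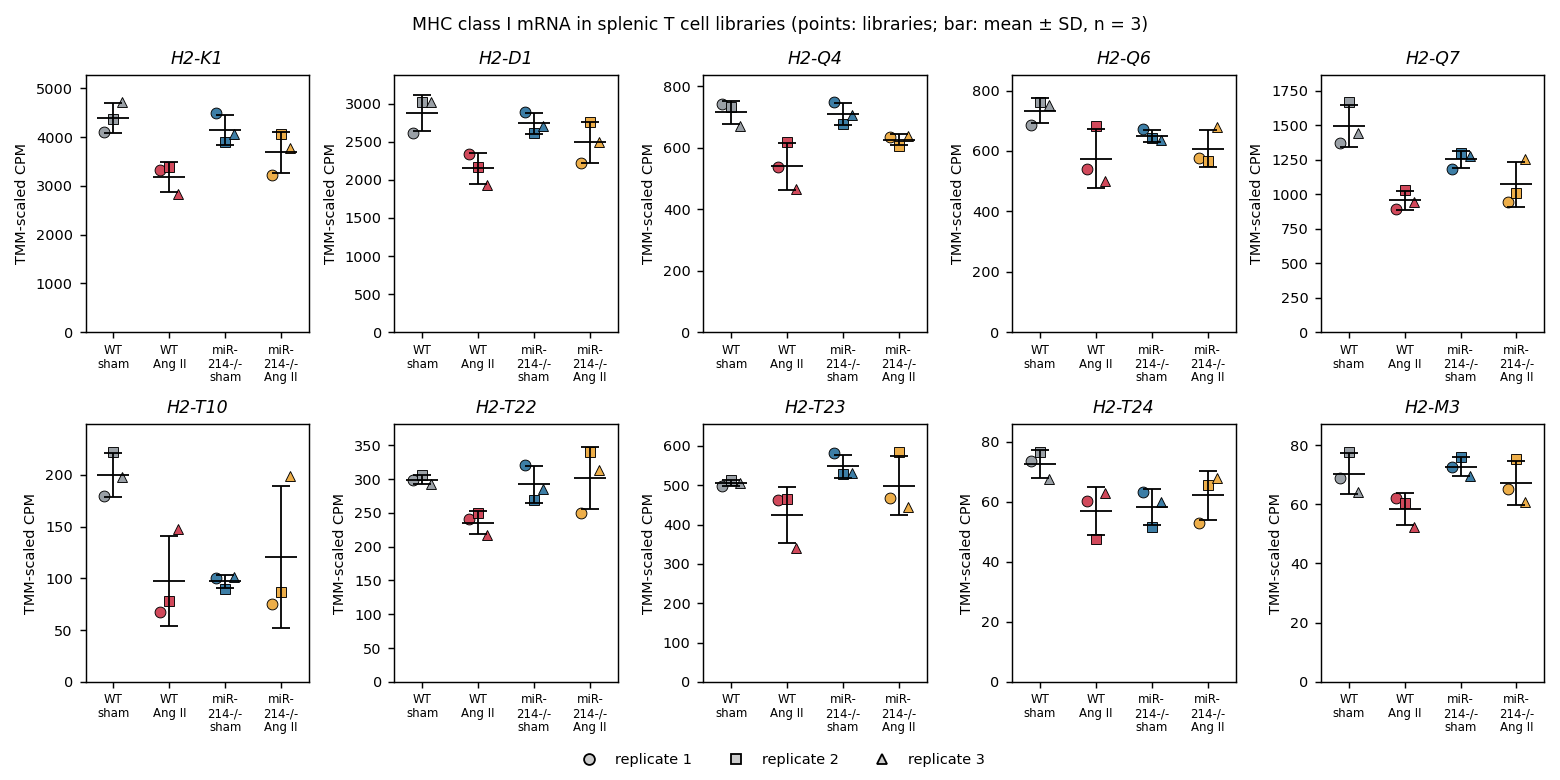
TMM-scaled CPM (vertical axes, from 0) of the 10 class I genes in each library, by group, with the mean and SD of 3 libraries. In the other 9 panels WT Ang II is lowest on average, whereas in the H2-T10 panel replicate 3 of both Ang II groups stands apart from replicates 1 and 2.

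The first comparison asks how Ang II infusion changed T cells of WT mice. For all 10 class I genes the highest WT Ang II library lay below the lowest WT sham library, which held for 22% of all genes tested. The differences were small, with log2 fold changes between -1.01 and -0.24 and a median of -0.36, against a median of -0.02 over all genes. At an adjusted p under 0.05 with an absolute log2 fold change over 1, which is what called means here, 0 of the 10 were called and 7.3% of all genes were. At the adjusted p alone 4 of 10 passed, all lower. Of all 16012 genes tested 18.8% passed, 1131 of them lower and 1878 higher. At an unadjusted p under 0.05 there were 9 of 10, against 35.6% of all genes. DESeq2 called 1 of the 10, H2-T10, and 1380 genes over the whole table.

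The clearest difference was in H2-Q7. It was at 1375, 1668 and 1442 CPM in the 3 WT sham libraries and at 895, 1032 and 941 CPM in the 3 WT Ang II libraries. The groups did not overlap, and the log2 fold change was -0.62 with an SE of 0.10 (adjusted p = 0.0107). H2-K1 had 4102, 4379 and 4719 CPM in WT sham and 3328, 3385 and 2825 CPM in WT Ang II. Its log2 fold change was -0.45 with an SE of 0.12 (adjusted p = 0.0383), and WT Ang II replicate 3 was the lowest library. H2-D1 ran alongside, with 2610, 3022 and 3020 CPM in WT sham and 2345, 2174 and 1932 CPM in WT Ang II. The log2 fold change of H2-D1 was -0.40 (SE 0.11), which just missed the threshold (adjusted p = 0.0509). The ratio of H2-D1 to H2-K1 counts was nearly the same in all 12 libraries, between 0.636 and 0.705.

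Among the other non-classical genes, H2-T22 fell from 299 ± 6.95 CPM to 235 ± 16.9 CPM (mean ± SD, n = 3; log2 fold change -0.33, SE 0.07, adjusted p = 0.0211). H2-Q4 fell from 715 ± 38 CPM to 540 ± 76.2 CPM (log2 fold change -0.38, SE 0.11, adjusted p = 0.0490). The remaining 4 apart from H2-T10 had smaller or more variable differences: H2-Q6 -0.33, H2-T24 -0.33, H2-M3 -0.25 and H2-T23 -0.24 as log2 fold changes, with adjusted p between 0.0908 and 0.201. H2-T23, the Qa-1 gene, was at 499, 514 and 505 CPM in WT sham and at 464, 466 and 342 CPM in WT Ang II, with WT Ang II replicate 3 well below the others.

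T cell markers moved the same way in these libraries. Of 12 T cell markers 11 were lower at the adjusted p alone, with a median log2 fold change of -0.53, and their summed level was 5501 to 6437 CPM in WT sham and 3681 to 4370 CPM in WT Ang II. Neutrophil markers were called higher in 8 of 8 (median log2 fold change 3.18) and red-cell precursor markers in 4 of 9 (median 2.70). In bulk libraries fewer T cells and less class I mRNA per cell cannot be told apart, and the part of these shifts in the class I result was not tested.

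**Figure D2:**
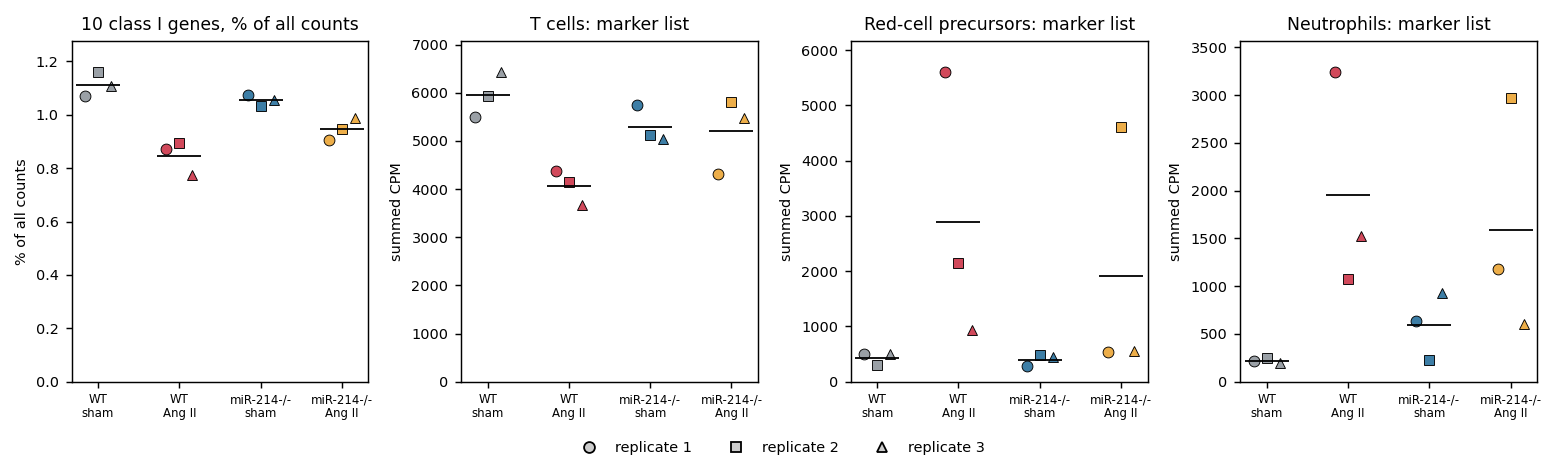
Sum of the 10 class I genes as a percentage of all counts, and summed CPM of the marker lists of T cells, red-cell precursors and neutrophils, by library and group (vertical axes from 0, horizontal marks are means of 3 libraries). The WT Ang II libraries, at 0.775 to 0.895% for class I, lie below the WT sham libraries at 1.07 to 1.16%, and the T cell list is lower there too, while both other lists reach their highest levels in Ang II libraries.

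In miR-214-/- T cells the same comparison gave no class I gene past the threshold. The summed share of the 10 genes was 1.07, 1.03 and 1.05% of counts in the 3 miR-214-/- sham libraries and 0.904, 0.948 and 0.988% in the 3 miR-214-/- Ang II libraries. The edgeR log2 fold changes were between -0.22 (H2-Q7) and 0.31 (H2-T10), 7 below 0 and 3 above, with a median of -0.12 and a smallest adjusted p of 0.504. No gene of the whole table was called either (0%), 12.2% of all genes and 0 of the 10 had an unadjusted p under 0.05, and DESeq2 called 51 genes, none of them among the 10. H2-Q4 alone had groups that did not overlap, at 711 ± 36.2 CPM in sham and 627 ± 18.5 CPM in Ang II (mean ± SD, n = 3), a pattern that 10.5% of all genes showed in the lower direction. H2-K1 was at 4487, 3898 and 4059 CPM in miR-214-/- sham and 3221, 4065 and 3771 CPM in miR-214-/- Ang II, so the groups overlapped. The T cell list had a median log2 fold change of -0.02 here, while the B cell list was at 1.24, the red-cell precursor list at 2.48 and the neutrophil list at 1.43, with none of their genes called. Those shifts were carried unevenly by the libraries: miR-214-/- Ang II replicate 2 had 4610 CPM of red-cell precursor markers and replicates 1 and 3 had 544 and 563 CPM.

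The next comparison set miR-214-/- sham beside WT sham. On the mixed background, the deletion and other differences between these mice cannot be told apart in it. H2-T10 was the only class I gene called, and it was lower in miR-214-/- sham. It had 180, 222 and 198 CPM in WT sham and 101, 90.0 and 101 CPM in miR-214-/- sham, with no overlap. The log2 fold change was -1.04 with an SE of 0.09 (adjusted p = 0.0208), the second smallest p among 15913 genes, of which 3, or 0.0189%, were called. The other 9 had log2 fold changes between -0.32 (H2-T24) and 0.11 (H2-T23) and adjusted p of at least 0.701, while DESeq2 called H2-T10 alone among the 10. Counting groups that did not overlap, 4 of 10 were lower in miR-214-/- (H2-Q6, H2-Q7, H2-T10 and H2-T24), against 4.79% of all genes, and 1 was higher (H2-T23), against 5.39%. H2-T24 was at 73.4, 76.6 and 67.6 CPM in WT sham and at 63.1, 51.7 and 59.9 CPM in miR-214-/- sham, a difference that did not pass (adjusted p = 0.701). In the same contrast the neutrophil list had a median log2 fold change of 1.45, the B cell list of -1.22 and the T cell list of -0.14, with no gene of them called, and their part in the H2-T10 result was not tested.

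The call on H2-T10 depended on which libraries set the spread. With a single fit over all 12 libraries its log2 fold change was -1.04 and its adjusted p 0.998, and the replicate numbers as a block gave an adjusted p of 0.325. The call was also lost without WT sham replicate 2 (adjusted p = 0.122), WT sham replicate 3 (0.213) or miR-214-/- sham replicate 3 (0.127). Without miR-214-/- sham replicate 2 the log2 fold change was -0.99, under the fold threshold, at an adjusted p of 0.0366. The log2 fold change itself stayed between -1.11 and -0.96 in all fits, including those that kept the call.

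**Figure D3:**
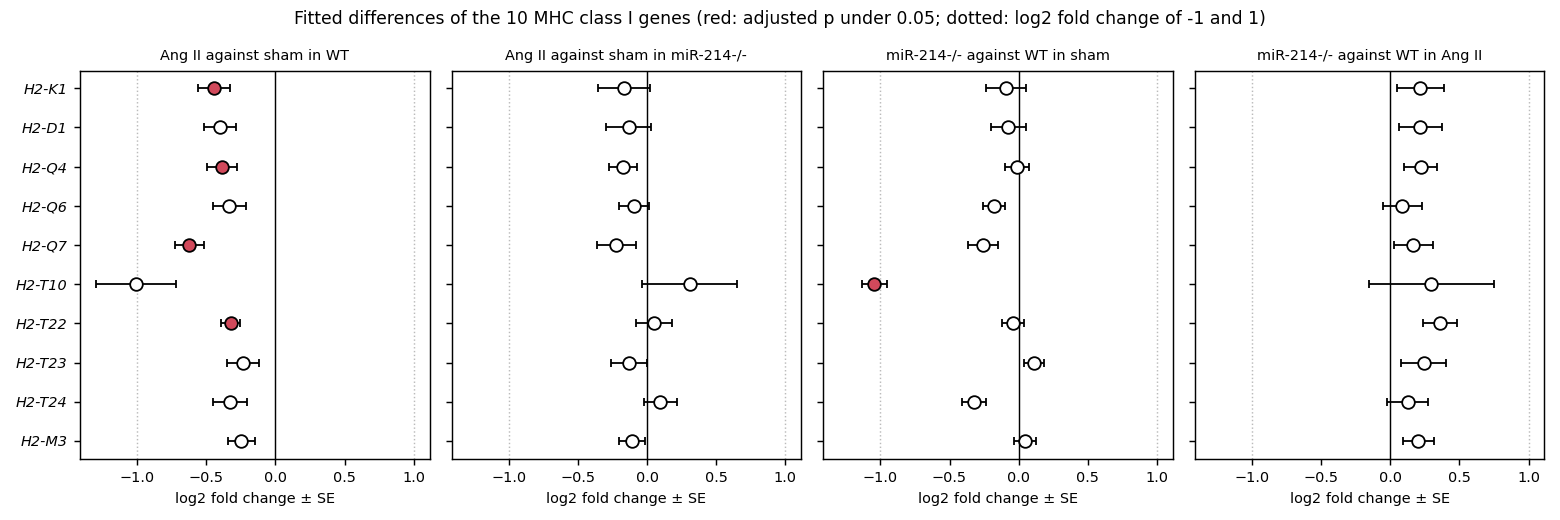
Log2 fold change and SE of each class I gene in 4 comparisons, with genes under an adjusted p of 0.05 in red. WT Ang II against sham lies left of 0 for all 10 genes, miR-214-/- against WT in Ang II lies right of 0 for all 10, and H2-T10 has the longest bars in 3 of the 4 and stands at -1.04 in sham.

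Under Ang II, all 10 genes had a positive log2 fold change in miR-214-/- against WT, between 0.09 and 0.36 with a median of 0.22. Over all genes the median was 0.001 and 49.8% were negative. Most of the 10 varied together over the libraries, so their signs are not 10 separate results. None of the 10 was called (smallest adjusted p 0.569). No gene of the table was called (0%), 1 of the 10 (H2-T22) and 8.56% of all genes had an unadjusted p under 0.05, and DESeq2 called 21 genes, none of them a class I gene. H2-T22 had 240, 249 and 217 CPM in WT Ang II and 250, 340 and 314 CPM in miR-214-/- Ang II. These groups did not overlap, as for 8.01% of all genes in that direction, although replicate 1 of miR-214-/- lay only just above the highest WT library. This comparison shares the WT Ang II libraries with the first one and the miR-214-/- Ang II libraries with the second. The T cell list stood at a median log2 fold change of 0.40 in the same contrast.

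The interaction asks whether the response to Ang II differed between genotypes. All 10 estimates were positive, between 0.12 (H2-T23) and 1.34 (H2-T10) on the log2 scale with a median of 0.29. Over all genes the median was 0.01 and 48.5% were negative. Of the 10, 0 passed an adjusted p under 0.05, a level that 0.00596% of all genes passed. Unadjusted, 4 of the 10 (H2-Q7, H2-T10, H2-T22 and H2-T24) and 14.8% of all genes had a p under 0.05, and DESeq2 called 444 genes with none of the 10 among them. The smaller change of class I mRNA in miR-214-/- than in WT was therefore not separated from the spread between mice (smallest adjusted p 0.271). The T cell list had a median interaction of 0.52, with 12 of 12 markers positive, and the neutrophil list one of -1.71. The part of these shifts in the class I estimates was not tested. Without miR-214-/- Ang II replicate 1, which had the lowest class I share of its group, H2-T22 passed (interaction 0.51, adjusted p = 0.0429) in a fit that called 919 genes.

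H2-T10 differed between single libraries in a way that crossed both genotype and treatment. It was at 180, 222 and 198 CPM in the 3 WT sham libraries, at 148 CPM in WT Ang II replicate 3 and at 199 CPM in miR-214-/- Ang II replicate 3. The remaining 7 libraries lay between 67.4 and 101 CPM: WT Ang II replicates 1 and 2 at 67.4 and 77.7, miR-214-/- sham at 101, 90.0 and 101, and miR-214-/- Ang II replicates 1 and 2 at 75.4 and 86.7. There was no library between 101 and 148 CPM. The ratio of H2-T10 to H2-T22 counts in the same library, which does not depend on scaling, showed the same: 0.602, 0.726 and 0.676 in WT sham, 0.280, 0.312 and 0.682 in WT Ang II, 0.313, 0.335 and 0.354 in miR-214-/- sham and 0.301, 0.255 and 0.635 in miR-214-/- Ang II. H2-T22, its close copy, did not follow it, with 217 and 314 CPM in the replicates numbered 3 of WT Ang II and miR-214-/- Ang II.

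The group differences of H2-T10 rest on these libraries. Ang II against sham in WT gave a log2 fold change of -1.01 (SE 0.29, adjusted p = 0.0523), and without WT Ang II replicate 3 it was -1.45 (adjusted p = 0.00636) and was called. That library stands out by its high H2-T10 level, so a larger difference without it follows from the choice. Leaving out any other single library of this comparison gave no call. In miR-214-/- the log2 fold change of 0.31 became -0.26 without Ang II replicate 3 of that genotype (adjusted p = 0.371). Between genotypes under Ang II it was 0.30 with all libraries, 0.74 without WT Ang II replicate 3, -0.26 without miR-214-/- Ang II replicate 3 and 0.18 without either, and none of these was called.

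Several genes beside H2-T10 had the same high and low libraries, though not all did: Gm9574, 19.5 kb away, had an r of -0.56 with H2-T10 (Pearson, log2 CPM over 12 libraries) and Gm7030, whose midpoint is nearest, of 0.64. The genes given here were chosen after their values were seen. Gm8810, an unprocessed pseudogene 51.7 kb from H2-T10 midpoint to midpoint (chr17:36066108-36067753), had 59, 77 and 77 counts in WT sham, 54 in WT Ang II replicate 3 and 74 in miR-214-/- Ang II replicate 3, and 0 in each of the other 7. A count of 0 allows up to 3 counts, so WT sham was at least 24.6-fold higher than miR-214-/- sham, with the limit taken per library and covering counting error only. Gm8810 was also among the 3 genes called between genotypes in sham (adjusted p = 0.0262).

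H2-T3, which encodes the thymus leukaemia antigen (chr17:36185572-36190287), had 46, 120 and 59 counts in WT sham, 47 in WT Ang II replicate 3 and 50 in miR-214-/- Ang II replicate 3. In the other 7 libraries it had 2 to 9 counts. Gm10499 (chr17:36141758-36145923) had 28, 57 and 51 counts in WT sham and 31 in each of the same Ang II libraries, and between 3 and 11 elsewhere. Gm19684, whose first annotated base lies just past the start of H2-T10 on the other strand (chr17:36121678-36129692), had 114, 168 and 112 counts in WT sham, 78 and 121 in those Ang II libraries, and 53 to 65 elsewhere. Gm8810 and H2-T3 were thus at or near 0 in libraries where H2-T10 and Gm19684 still had a good part of their highest level. H2-T3 did not pass in sham between genotypes (adjusted p = 0.0870). Of the 150-base stretches of Gm8810, H2-T3 and Gm10499 transcripts, 0 were found in a transcript of another gene, and of those of Gm19684 15.3% were, in Gm6034.

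**Figure D4:**
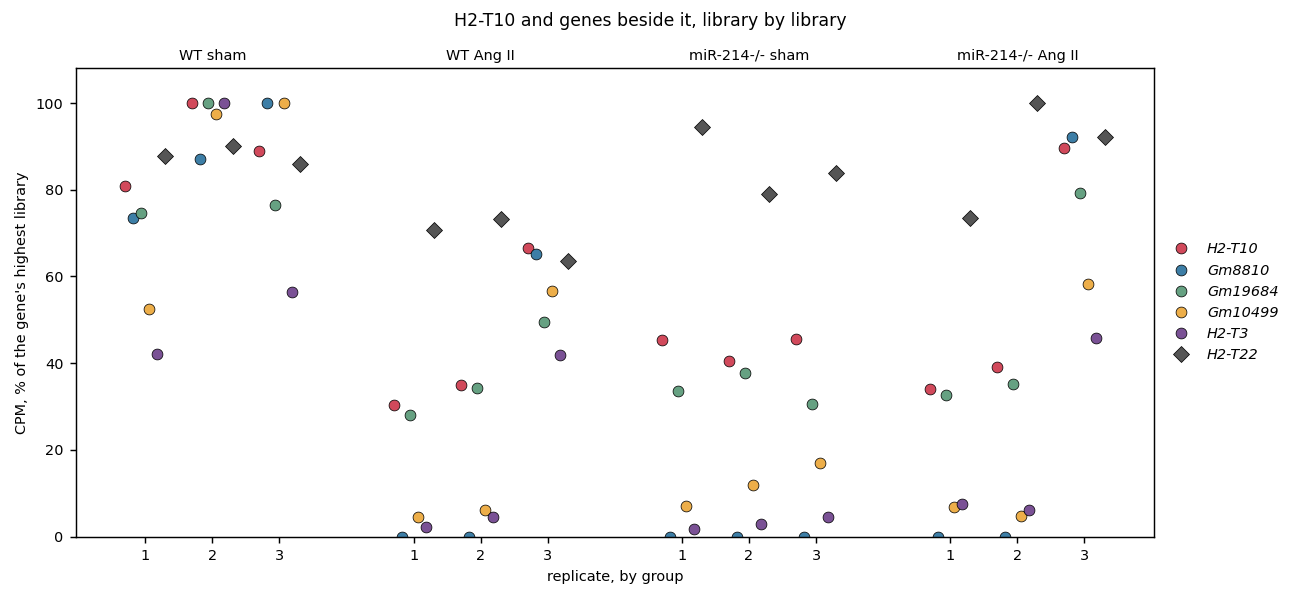
CPM of H2-T10, 4 genes beside it and H2-T22 in each library, as a percentage of the gene's highest library (vertical axis from 0), by group and replicate. H2-T10, Gm8810, Gm19684, Gm10499 and H2-T3 are high in WT sham and in replicate 3 of both Ang II groups, and H2-T22 is not arranged in this way.

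Likeness was measured as Pearson's r of log2 CPM over the 12 libraries, as a description without a test, since the libraries share group, depth and composition. Among 12280 genes with a mean log2 CPM over 1, Gm19684 (r = 0.961) and Dnah8 (r = 0.932) were most like H2-T10, and both lie on chromosome 17. With low genes included, 24 of 16769 genes (0.143%) had an r over 0.8. Of these 24, 12 were on chromosome 17, which holds 4.96% of the genes tested, and 12 were on other chromosomes. Within 100 kb of H2-T10 it was 7 of 13 tested genes, and in the whole span between H2-K1 and H2-M3 it was 7 of 148, the farthest 69.3 kb away. The other 5 on chromosome 17 included Dnah8, at chr17:30624354-30877365, and Olfr99 (chr17:37279043-37283460), near H2-M3. The r of the other members with H2-T10 ran from -0.18 (H2-T23) to 0.79 (H2-T24), with a median of 0.37. Neither H2-T22 (r = 0.34), which lies between H2-T10 and H2-T23, nor H2-T23 was like it.

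**Figure D5:**
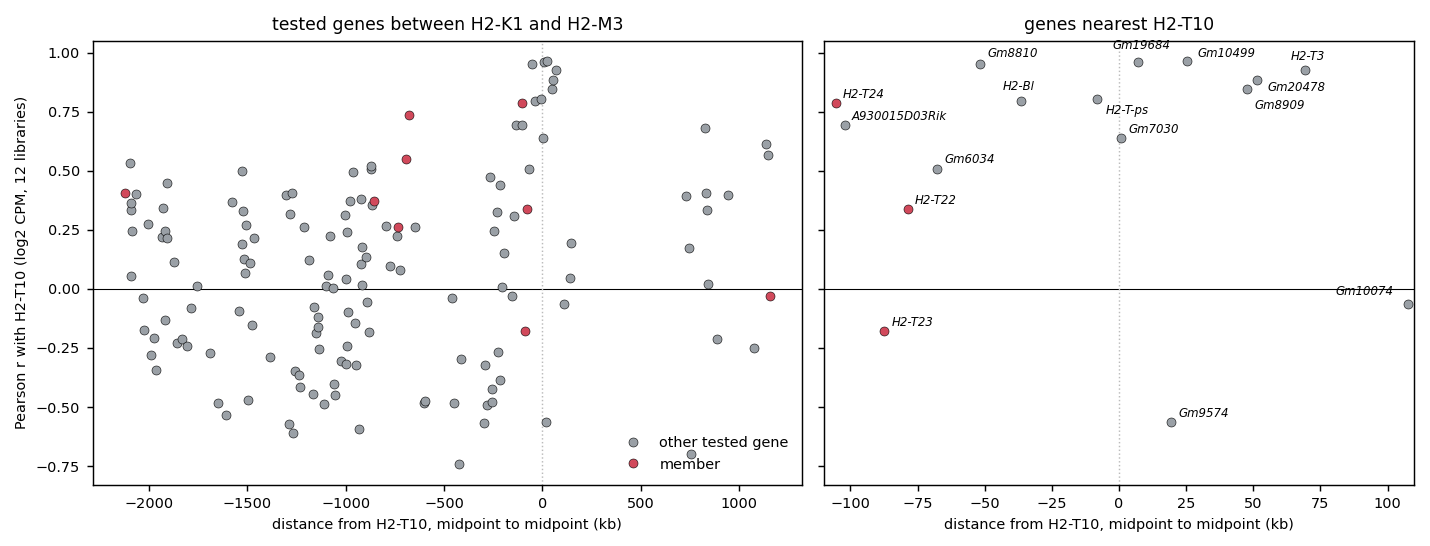
Pearson's r with H2-T10 (vertical axis, log2 CPM over 12 libraries) against distance from H2-T10 in kb for tested genes between H2-K1 and H2-M3 (left) and nearest to it (right), members in red. The r values over 0.8 lie within 69.3 kb of H2-T10, though not every gene there has one, and H2-T22 and H2-T23, farther out, are at 0.34 and -0.18.

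By the median r, the other 9 genes followed each other more closely. Over their 36 pairs r had a median of 0.74 and reached 0.98 for H2-K1 with H2-D1, and the lowest was 0.09 for H2-T23 with H2-T24. This did not hold for each gene: H2-T24 was more like H2-T10 (0.79) than like any other member (at most 0.55, with H2-Q7). H2-Q7 itself had an r of 0.74 with H2-T10. H2-T23 and H2-M3 had an r of 0.89 and H2-Q6 and H2-Q7 0.86, the last a pair whose counts may trade reads. Outside the family, S1pr4, a sphingosine 1-phosphate receptor (r = 0.985), and Ccm2 (0.983) were most like H2-K1. Idnk (0.977) and Tgtp2, an interferon-induced GTPase (0.971), were most like H2-D1. For H2-Q7 it was the class I pseudogene H2-T-ps (0.969) and Selenoo (0.956). H2-T24 was most like Prr7 (0.878) and Klrk1 (0.873), the gene of the NKG2D receptor. The most like genes of the remaining 5 were A630014C17Rik and Cbx7 for H2-Q4, Phf12 and Atp9b for H2-Q6, Slu7 and Riox2 for H2-T22, Gnptg and Sh2d1a for H2-T23, and Gm13842 and 2810013P06Rik for H2-M3, with r between 0.908 and 0.964.

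Single libraries set some of the spread of these 9 genes too. The library farthest from its own group's mean was an Ang II library for all 10 genes. WT Ang II replicate 3 was below its group's mean in 8 of the 9 genes (median deviation -0.15 on the log2 scale), and miR-214-/- Ang II replicate 1 likewise in 8 of 9 (median -0.16). The largest deviations outside H2-T10 were H2-T23 in WT Ang II replicate 3 (-0.30), H2-Q6 in WT Ang II replicate 2 (0.26) and H2-T22 in miR-214-/- Ang II replicate 1 (-0.26). The 6 sham libraries were closer together. The ratio of H2-T23 to H2-T22 counts was lowest in the Ang II libraries numbered 3, at 1.58 in WT and 1.42 in miR-214-/-, and it was between 1.67 and 1.97 in the other 10.

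The partners of class I were read from lists of genes. B2m, the common light chain, was at 1814, 1988 and 1932 CPM in WT sham and 1586, 1600 and 1477 CPM in WT Ang II, without overlap (log2 fold change -0.28, SE 0.09, adjusted p = 0.0640). Of 15 genes of assembly and peptide supply, 2 were lower and 1 was higher at the adjusted p alone in WT, and 0 were called. The share that passed was close to the 18.8% of all genes. The 2 lower ones were Psmb9, an immunoproteasome subunit (-0.37), and Tap1, of the peptide transporter (-0.28). The higher one was the chaperone Canx (0.47). Tap2 (-0.33), Tapbp (-0.24) and Psmb8 (-0.27) did not pass, with adjusted p of 0.0667, 0.164 and 0.167. The list's median was -0.27, beside -0.36 for the 10 heavy chains. In miR-214-/- the list's median was 0.08 and no gene passed (smallest adjusted p 0.407).

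Of 14 transcription factors of class I genes, 3 were lower in WT Ang II at the adjusted p alone and none higher. Of all 16012 genes tested, 1131 were lower and 1878 higher at that threshold. Nlrc5, the class I transactivator, had a log2 fold change of -0.40 (SE 0.09, adjusted p = 0.0217) and Irf1 of -0.35 (adjusted p = 0.0387). In miR-214-/- Nlrc5 was at -0.21 (adjusted p = 0.421) and no factor passed. Of 20 interferon response genes, 6 were lower in WT at the adjusted p alone and none higher, beside 1131 of all 16012 genes lower. Among the 6 were Ifit2 (-0.62), Usp18 (-0.66), Gbp2 (-0.31), Ifi47 (-0.39) and Igtp (-0.39), with a list median of -0.29. The list was not uniform: 2 of the 20 were positive, and Rsad2 had its largest change (2.83), which did not pass (adjusted p = 0.0604). In miR-214-/- the list's median was -0.01 with none past the threshold.

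Among 14 tested other class I and class I-like genes in WT, 2 were lower at the adjusted p alone and none was higher. They were H2-K2 (-0.74, adjusted p = 0.0159) and H2-T-ps (-0.61, adjusted p = 0.0174), both pseudogenes in the annotation. Of all 16012 genes tested, 1131 were lower at that threshold. H2-K2 was at -0.66 in miR-214-/-, where it did not pass (adjusted p = 0.218). Of 11 tested receptors for class I none passed in WT. The CD8 chains Cd8a (-0.56) and Cd8b1 (-0.62) had adjusted p of 0.0595 and 0.0564. The list's median was -0.46, beside -0.53 for T cell markers. Of 133 other tested genes between H2-K1 and H2-M3, 9 were lower and 4 higher at the adjusted p alone in WT, a smaller share than the 18.8% of all genes, with a median of -0.14. Of these, Gm19684 was called lower (-1.15) and Trim10, a gene of red-cell development, called higher (3.88). In the remaining comparisons these lists had no gene past the adjusted p, except Gm8810 in sham.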

How the data were processed

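RNASeq raw counts per gene were deposited for 12 libraries. The authors trimmed reads, mapped them to GRCm38 with STAR and counted unique reads in exons with featureCounts of Subread 1.5.2, per the labels and the study's methods, without normalization. All count columns were used (0 left out). Of 49315 identifiers 49056 matched GENCODE annotation of GRCm38. Members and gene lists were chosen with earlier results of these data known. The main test was edgeR 4.0.16 under R 4.3.3 (filterByExpr, TMM, quasi-likelihood test, Benjamini-Hochberg adjustment over all genes tested), each comparison fitted on its own 6 libraries and the interaction on all 12. Calls required an adjusted p under 0.05 together with a log2 fold change exceeding 1 in size, a size limit that the interaction did not have. The study's tool, DESeq2 1.42.0, was an alternative, with other scalings, filters, a replicate block, a single fit and each library left out. Scripts were tested on simulated data. Log2 CPM used a prior count of 2. Genes named were all members, list genes under an adjusted p of 0.05 (at most 5 per list and comparison) with B2m, Tap1, Tap2, Tapbp, Psmb8, Psmb9 and Nlrc5, and the 2 non-members most like each member. Others were named after their values were seen. Each library came from its own mouse. None of 12 pairs of libraries within a group was identical. Some single list genes and sequences are not reported here.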

Additional observations from a re-analysis of the deposited data

How the results depend on the processing

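In WT Ang II against sham 0 members were called, and 1 (H2-T10) was under DESeq2, with at least 10 counts required in every library and with a replicate block, while 4 passed at the adjusted p alone. Leaving out 1 library gave 0 to 1. In sham the count of 1 between genotypes became 0 with a replicate block and in a single fit over all groups, and was 0 to 1 with 1 library left out. For the interaction it was 0 to 1. The replicate block changed no other call on members. Over all genes, same-numbered libraries did not deviate together (correlations from -0.56 to 0.20). These correlations cannot exclude a pairing, since marker levels of other cell types also differed strongly between libraries of a group. For Ang II in WT, DESeq2 called 1380 genes and edgeR 1169. DESeq2 called 45 genes between genotypes in sham and edgeR 3, and 51 against 0 for Ang II in miR-214-/-. It was 21 against 0 between genotypes in Ang II, and 444 against 1 for the interaction. Without the filter edgeR called 9 in sham.

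All 10 members kept a negative sign in WT under every alternative. The signs of some uncalled differences turned, those of H2-T10 among them. H2-Q4 between genotypes in sham was 0.015 with library size scaling and 0.0022 without a filter, against -0.01. H2-Q6 between genotypes in Ang II was -0.077 with both Ang II libraries numbered 3 left out, an alternative added after seeing the data, against 0.09. With 1 library left out, the log2 fold change ran from -0.050 to 0.16 for H2-T22 and from -0.26 to 0.55 for H2-T10 (Ang II in miR-214-/-). In sham it ran from -0.059 to 0.026 for H2-Q4, from -0.019 to 0.13 for H2-M3 and from -0.11 to 0.021 for H2-T22. It ran from -0.26 to 0.74 for H2-T10 between genotypes in Ang II, and from -0.012 to 0.20 for H2-T23 in the interaction. The cause was not tested.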
